A study of Mus musculus with 6 samples.

Results

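The matrix metalloproteinases and their tissue inhibitors formed the set of genes described here. Its 10 members were Mmp2, Mmp8, Mmp9, Mmp12, Mmp13, Mmp14, Mmp19, Mmp27, Timp1 and Timp2, chosen by name with earlier results of these data known. All 10 were found by symbol among the 47729 genes counted in each library. RNA was sequenced from macrophage lines of C57BL/6J mice that carried Aif1 (WT) or lacked it (Aif1-/-), with 3 libraries of each genotype and no treatment. Aif1 encodes allograft inflammatory factor, a calcium-binding protein of macrophages that bundles actin. The donors were 8 weeks old, their leg-bone marrow was the source of the macrophages, and the SV40 large T antigen was used to make the lines immortal. Lines of both genotypes were kept in α-MEM with 10% FBS and 120 ng/ml CSF-1 and were used at passages 3 to 5.

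Several features limited these lines as a model. Both genotypes carried the viral antigen, and the Aif1 deletion was germline. The study describes the lines of a genotype as coming from independent male animals, while the labels only number the libraries. The tests measured the spread among these 6 libraries. Reads assigned to genes numbered between 17707986 and 29314253 per library, and between 25.5% and 40.4% of the counted reads fell outside genes, the most in WT replicate 2. Aif1 had 220, 157 and 239 reads in the WT libraries and 4, 4 and 1 in the Aif1-/- libraries, so every library matched its label. The replicates of a genotype differed by more than sampling noise, so no library was a copy of another. A chi-squared per degree of freedom measured this difference, at 11.5, 28.4 and 50.7 between WT libraries. It was 2.93, 3.49 and 2.47 between Aif1-/- libraries, which were thus much more alike.

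Matrix metalloproteinases are zinc-dependent endopeptidases that are made as inactive proenzymes and cut collagens, elastin, basement membrane and many secreted proteins once the propeptide is removed. Tissue inhibitors of metalloproteinases bind the active site of these enzymes. Macrophages are a known source of metalloelastase and of gelatinase B, with which they remodel matrix and pass through basement membrane. Many family genes sit side by side in one cluster on mouse chromosome 9, and the promoters of several of them are known for AP-1 and ETS (PEA3) elements near a TATA box.

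The promoters of the 4 cluster genes with enough reads to be tested are shown because these genes, Mmp13, Mmp12, Mmp27 and the non-member Mmp10, are the expressed part of the cluster described later. Each line holds the 250 bases before a transcription start, from RefSeq on build GRCm38.p6, 5′ to 3′ on the plus strand, with capitals marking AP-1 (spelled TGANTCA), PEA3 (spelled AGGAAG) or a TATA box (spelled TATAAA) found on either strand. RefSeq gave 2 starts for Mmp12.
Mmp13 (chr9:7272264-7272513): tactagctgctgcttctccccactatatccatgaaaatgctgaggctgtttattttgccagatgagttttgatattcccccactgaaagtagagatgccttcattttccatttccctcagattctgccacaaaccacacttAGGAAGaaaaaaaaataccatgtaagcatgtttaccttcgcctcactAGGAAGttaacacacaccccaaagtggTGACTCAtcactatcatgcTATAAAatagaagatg
Mmp12 first start (chr9:7344147-7344396): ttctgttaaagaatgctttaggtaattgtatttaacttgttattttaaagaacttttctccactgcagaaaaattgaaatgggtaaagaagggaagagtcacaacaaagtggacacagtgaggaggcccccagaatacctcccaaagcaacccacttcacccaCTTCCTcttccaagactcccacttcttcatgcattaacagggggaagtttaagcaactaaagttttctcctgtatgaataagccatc
Mmp12 second start (chr9:7347124-7347373): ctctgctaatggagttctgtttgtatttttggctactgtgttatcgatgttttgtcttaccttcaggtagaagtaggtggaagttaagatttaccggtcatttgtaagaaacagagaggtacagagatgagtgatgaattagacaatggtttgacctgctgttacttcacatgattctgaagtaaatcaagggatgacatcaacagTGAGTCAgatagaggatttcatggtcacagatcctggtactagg
Mmp10 (chr9:7502092-7502341): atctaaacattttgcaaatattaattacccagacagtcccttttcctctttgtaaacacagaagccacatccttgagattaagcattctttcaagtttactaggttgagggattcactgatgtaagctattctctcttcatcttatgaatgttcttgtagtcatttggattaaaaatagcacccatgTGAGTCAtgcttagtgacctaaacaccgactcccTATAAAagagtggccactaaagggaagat
Mmp27 (chr9:7571146-7571395): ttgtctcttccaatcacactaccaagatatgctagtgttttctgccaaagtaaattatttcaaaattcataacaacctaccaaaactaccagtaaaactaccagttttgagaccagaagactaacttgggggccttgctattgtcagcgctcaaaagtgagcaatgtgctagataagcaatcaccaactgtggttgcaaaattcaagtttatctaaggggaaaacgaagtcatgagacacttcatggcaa

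In the Mmp13 window the AP-1 letters lay 35 to 29 bases before the start, PEA3 letters lay 109 to 104 and 62 to 57 bases before it, and TATA letters lay 16 to 11 bases before it. The second Mmp12 window held AP-1 letters 44 to 38 bases before its start. In the first Mmp12 window the only match was PEA3 on the minus strand, 87 to 82 bases before the start. Mmp10 held AP-1 letters 63 to 57 and TATA letters 29 to 24 bases before its start. None of the 3 motifs was found in the Mmp27 window.

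AP-1 letters were found in 8 of the 10 Mmp genes of the cluster, against 6.75% of the 32851 promoter windows of this length. A gene was counted if any of its windows held the letters, and Mmp12 counted through its second start only. The letters searched were those that promoters of this family are known for, so the contrast is a description and no test. They were in 0 of the 13 other genes with a RefSeq promoter, which include the inhibitors Timp1, Timp2, Timp3, Timp4 and Reck. Of the 8 cluster genes with AP-1 letters, 3 were expressed enough to be tested and 5 were not. PEA3 letters were in 6 of the 10 cluster genes and 6 of the 13 others (29.5% of all windows), and TATA letters were in 7 of the 10 and 1 of the 13 (12.4% of all windows). A RefSeq promoter was found for 23 of the 29 family genes and inhibitors looked up and for 7 of the 10 members. Mmp2, Mmp9 and Mmp19 had no entry. No chromatin or factor binding was measured, so a match describes the letters of these windows only.

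Timp2 and Mmp12 were by far the most abundant members. Levels were compared between genes as RPKM, which are reads scaled for exon length and for library size. In WT libraries Timp2, an inhibitor that binds most family enzymes and also helps to activate gelatinase A, stood at 168 ± 25.1 RPKM (SD, n = 3). Mmp12, the macrophage metalloelastase, stood at 129 ± 6.31 RPKM. The WT libraries spanned 146 to 196 RPKM for Timp2 and 124 to 136 RPKM for Mmp12, so these neighbours in the order did not overlap.

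Mmp13, the main interstitial collagenase of rodents, followed at 17.0 ± 1.64 RPKM in WT libraries. Mmp19, a broad-spectrum enzyme that cuts basement membrane proteins, was at 3.86 ± 0.475 RPKM. Gelatinase B, encoded by Mmp9, stood at 1.51 ± 0.306 RPKM. The next levels were 1.27 ± 0.097 RPKM for Mmp27, a little-studied enzyme related to the stromelysins, and 1.14 ± 0.0831 RPKM for Mmp2, which encodes gelatinase A. Mmp9 (1.18 to 1.79), Mmp27 (1.21 to 1.38) and Mmp2 (1.06 to 1.23) overlapped in WT RPKM and cannot be ranked against each other.

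Timp1, the inhibitor that pairs with pro-gelatinase B, was near the floor at 0.483 ± 0.228 RPKM in WT libraries, from 7 to 18 reads. Mmp8, the neutrophil collagenase, had 4, 1 and 0 reads. Mmp14, the membrane-type enzyme that activates pro-gelatinase A on the cell surface, had 0, 3 and 0 reads. Both therefore had fewer than 5 reads in each library.

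In the Aif1-/- libraries Timp2 again led, at 124 ± 4.01 RPKM, and Mmp12 stood at 40.1 ± 1.08 RPKM. Mmp13 followed at 5.51 ± 0.116 RPKM, Mmp19 at 3.53 ± 0.138 RPKM and Mmp2 at 1.04 ± 0.0229 RPKM. Mmp9 and Mmp27 now lay below Mmp2, at 0.334 ± 0.0784 and 0.190 ± 0.0394 RPKM. In this genotype Mmp9 (0.255 to 0.412) did not overlap Mmp27 (0.152 to 0.231), and Mmp27 overlapped Timp1 (0.0631 to 0.212).

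**Figure D1:**
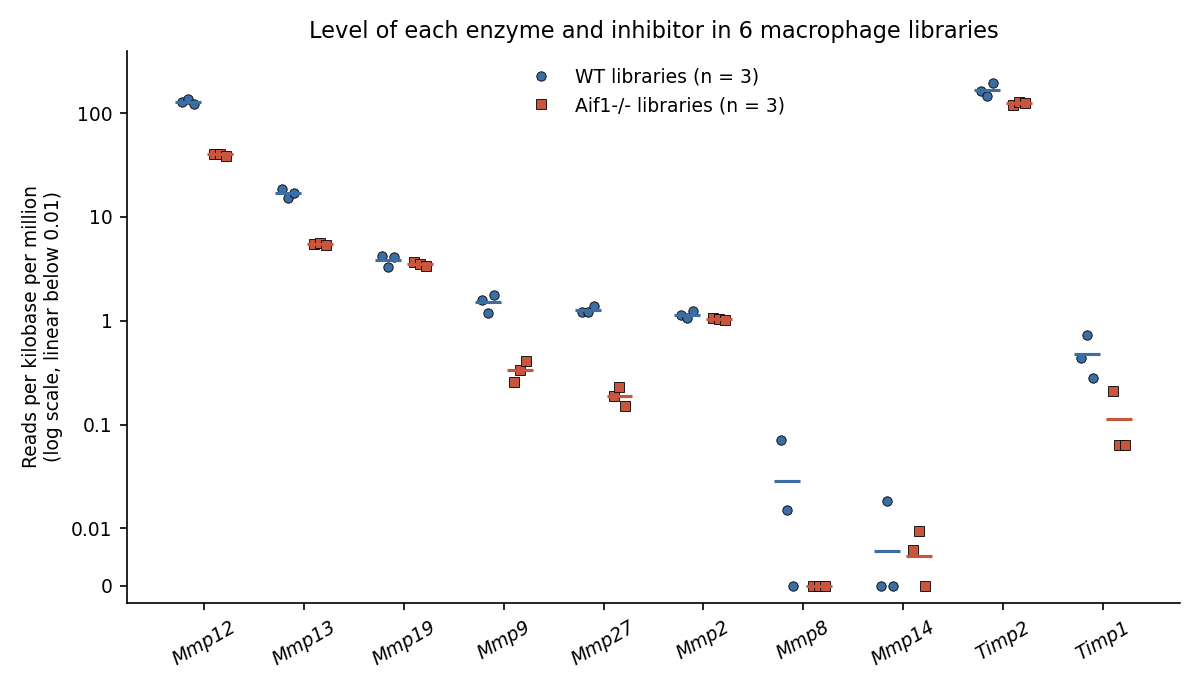
Level of each member in every library, as RPKM (reads scaled for exon length and library size) on an axis that is logarithmic above 0.01 and linear below it, with circles for WT libraries, squares for Aif1-/- libraries and a line at each mean. Timp2 and Mmp12 stand above 38 RPKM in every library, and the WT and Aif1-/- points of Mmp12, Mmp13, Mmp9 and Mmp27 lie well apart.

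Loss of Aif1 went with lower transcript levels of 4 proteinases and of 1 inhibitor. Mmp12, Mmp13, Mmp9 and Mmp27 were at least 3-fold lower in Aif1-/- libraries, Timp2 was 1.35-fold lower, and no member rose. Of the 10 members, 7 had enough reads for edgeR's quasi-likelihood test, 5 of these were lower at a Benjamini-Hochberg adjusted p under 0.05, and Mmp2 and Mmp19 did not pass. Over all 17406 genes tested, 18.6% were called, 10.5% lower and 8.04% higher. At least 2-fold lower calls numbered 4 members against 3.99% of all tested genes. The normalized counts of the genotypes did not overlap, with Aif1-/- lower, for 6 of the 7 tested members, against 19.1% of all tested genes in this direction and 35.7% in either. No member was called higher by edgeR, with adjusted or unadjusted p, or by DESeq2 (0 in each). The median log2 fold change was -1.62 over the 7 tested members and 0 over all tested genes. Mmp27 passed the filter on low counts only through its WT libraries, which nearly fixed its direction, so it adds no support to these counts. The members were chosen with earlier results known, so the shares above are a description and no test.

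Mmp12 had the most reads of any member in WT libraries, was second to Timp2 in Aif1-/- libraries, and had the narrowest interval of the tested members. Its normalized counts, which are counts scaled to a library of average size, were 21748.2, 23170.7 and 21068.4 in WT libraries. They were 6931.5, 6918.7 and 6606.0 in Aif1-/- libraries. The genotypes were far apart and the replicates of each lay close together. The mean fell from 21995.8 ± 1072.8 to 6818.7 ± 184.4 normalized counts (SD, n = 3 each). The log2 fold change was -1.69 (SE 0.07, 95% interval -1.84 to -1.54, edgeR adjusted p = 7.49e-08). Mmp12 lies on the plus strand of chr9:7344381-7369499 (GRCm38), and 2.17% of its exon bases overlap Mmp1b on the opposite strand, which had at most 2 reads in any library.

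Mmp13 changed by a like amount at a far lower read depth. Its normalized counts were 1167.3, 962.2 and 1075.8 in WT libraries and 347.1, 352.9 and 338.4 in Aif1-/- libraries, with no overlap. The log2 fold change was -1.62 (SE 0.10, 95% interval -1.84 to -1.41, edgeR adjusted p = 1.35e-06), a 3.08-fold lower mean. The gene occupies chr9:7272514-7283331 on the plus strand. Mmp8, the other collagenase of the set, lies at chr9:7558456-7568485 and had 5 reads summed over WT and 0 summed over Aif1-/-. Against a floor of 3 reads over the group the ratio was 1.31, with no allowance for counting error, and the genotypes overlapped. Mmp8 had too few reads to test, and with no filter on low counts its edgeR adjusted p was 0.35.

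The gelatinases differed in behaviour. Mmp9 (chr2:164940780-164955850) had normalized counts of 130.7, 98.4 and 148.6 in WT libraries and 21.2, 28.0 and 34.2 in Aif1-/- libraries. No Aif1-/- library reached the lowest WT value. Its mean went from 125.9 ± 25.4 to 27.8 ± 6.52 normalized counts, a log2 fold change of -2.20 (SE 0.26, 95% interval -2.78 to -1.62, edgeR adjusted p = 0.000185). That is a 4.59-fold lower mean, resting on 21 to 26 reads in each Aif1-/- library.

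Mmp2 (chr8:92827291-92853420), the other gelatinase, had normalized counts of 89.5, 84 and 97.1 in WT libraries and 83.9, 82.6 and 80.3 in Aif1-/- libraries. The highest Aif1-/- library lay just under the lowest WT library. Its log2 fold change was -0.13 (SE 0.18, 95% interval -0.53 to 0.27, edgeR adjusted p = 0.701), so a fall of up to 0.53 on the log2 scale lay within the interval. The difference between Mmp9 and Mmp2 in response was not tested, though their 95% intervals did not overlap. Mmp14 (chr14:54431612-54445364), which activates the Mmp2 product, had 3 reads summed over WT and 2 summed over Aif1-/-, too few for a fold.

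Mmp27 had the largest fold among the tested members, though from few reads. Its normalized counts were 63.3, 62.8 and 71.8 in WT libraries and 9.72, 12.0 and 7.90 in Aif1-/- libraries. The genotypes did not overlap. The mean fell from 66.0 ± 5.04 to 9.87 ± 2.05 normalized counts, a log2 fold change of -2.73 (SE 0.29, 95% interval -3.39 to -2.07, edgeR adjusted p = 9.52e-05). Mmp27 lies at chr9:7571396-7581885, directly next to Mmp8, on the plus strand.

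Mmp19 did not pass the test. It had normalized counts of 346.9, 274.9 and 338.6 in WT libraries and 302.9, 295.7 and 280.5 in Aif1-/- libraries. The genotypes overlapped, since WT replicate 2 lay below every Aif1-/- library. The log2 fold change was -0.13 (SE 0.12, 95% interval -0.40 to 0.15, edgeR adjusted p = 0.583). Its exons at chr10:128790910-128800824 share 28.3% of their bases with Tmem198b and Gm47093 on the opposite strand, and how far their reads entered its count was not tested.

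Of the inhibitors, Timp2 fell slightly and Timp1 could not be tested. Timp2 (chr11:118301069-118355740, minus strand) had normalized counts of 14868.8, 13381.1 and 17896.8 in WT libraries and 11004.9, 11735.8 and 11425.1 in Aif1-/- libraries. The genotypes did not overlap, but WT libraries were spread more widely than Aif1-/- libraries. The log2 fold change was -0.43 (SE 0.10, 95% interval -0.65 to -0.21, edgeR adjusted p = 0.0112). This call rested on the number of libraries: the adjusted p was 0.0688 without Aif1-/- replicate 1 and 0.0565 without Aif1-/- replicate 3.

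Timp1 had 9, 18 and 7 reads in WT libraries and 5, 1 and 1 in Aif1-/- libraries. All WT libraries lay above all Aif1-/- libraries, with 34 reads against 7 in sum. After scaling, the ratio of WT to Aif1-/- was 3.82, with a 95% interval of 1.67 to 10.2 that covers counting error only. With no filter on low counts the edgeR adjusted p of Timp1 was 0.137, and DESeq2 gave 0.217.

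Timp1 (chrX:20870166-20874735, plus strand) lies within Syn1, which is transcribed from the opposite strand, without sharing exon bases. Syn1, which encodes a synaptic vesicle protein and was named after its values were seen, stood at 922.4 ± 133.6 normalized counts in WT libraries, against 142.2 ± 15.26 without Aif1. Its log2 fold change was -2.71 (SE 0.14, edgeR adjusted p = 4.72e-07). The part of Syn1 reads in the Timp1 values was not tested.

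In bulk RNA, fewer cells that make a transcript and less of it per cell cannot be told apart for any member.

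**Figure D2:**
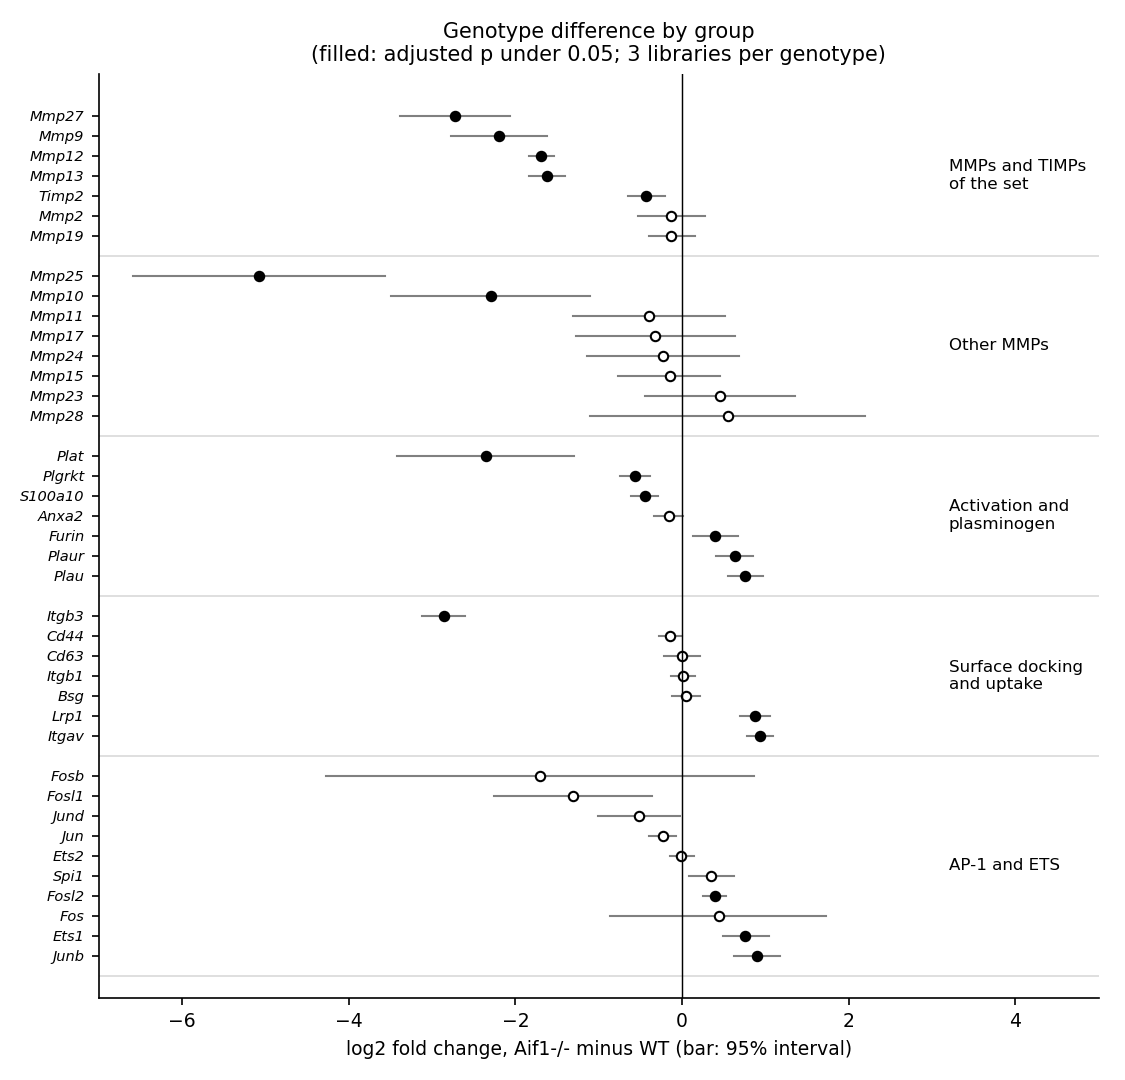
Log2 fold change, Aif1-/- minus WT, of the tested members and of the tested genes of the related lists, with points at the edgeR estimate, bars at the 95% interval and filled points for an adjusted p under 0.05. Mmp12, Mmp13, Mmp9 and Mmp27 lie between -2.73 and -1.62, Timp2 lies at -0.43, and Mmp2 and Mmp19 both lie at -0.13 with intervals that cross 0.

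The expressed Mmp genes of the chromosome 9 cluster were lower in Aif1-/- libraries. The cluster holds 10 Mmp genes over 427 kb, 4 of them members. The 4 with enough reads were Mmp13, Mmp12, Mmp10 and Mmp27, and all 4 were lower in Aif1-/- libraries, with 0 higher. Mmp1a, Mmp20 and Mmp7 had 0 reads in every library, and Mmp1b and Mmp3 had at most 2. The cluster genes share a locus and were not chosen independently of the set, so their count is a description. Mmp10 and Mmp27 passed the filter on low counts only through their WT libraries, which nearly fixed their direction, so the count of 4 is no support beyond Mmp12 and Mmp13.

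Mmp10, a stromelysin that lies 229.8 kb from the start of Mmp13, had 30, 20 and 32 reads in WT libraries and 6, 6 and 1 in Aif1-/- libraries. No Aif1-/- library reached the WT range, and the gene passed the filter through its WT libraries. Its log2 fold change was -2.30 (SE 0.53, 95% interval -3.49 to -1.11, edgeR adjusted p = 0.0122). The call was lost without WT replicate 1 (adjusted p = 0.0552), without Aif1-/- replicate 1 (0.0643) and without Aif1-/- replicate 3 (0.0556).

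The nearest tested protein-coding genes outside the cluster did not share this fall. Dcun1d5, a neddylation factor, lies upstream of Mmp13, with its start at -88 kb from that of Mmp13. Its log2 fold change was -0.17 (SE 0.10, 95% interval -0.38 to 0.05, edgeR adjusted p = 0.301), with an adjusted p of 0.0182 without WT replicate 2. Tmem123, a membrane glycoprotein on the other side, starts 491.5 kb after the start of Mmp13 and was higher at 0.30 (SE 0.08, 95% interval 0.13 to 0.47, edgeR adjusted p = 0.0182). That call was lost without Aif1-/- replicate 1 (adjusted p = 0.113) or replicate 2 (0.11).

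**Figure D3:**
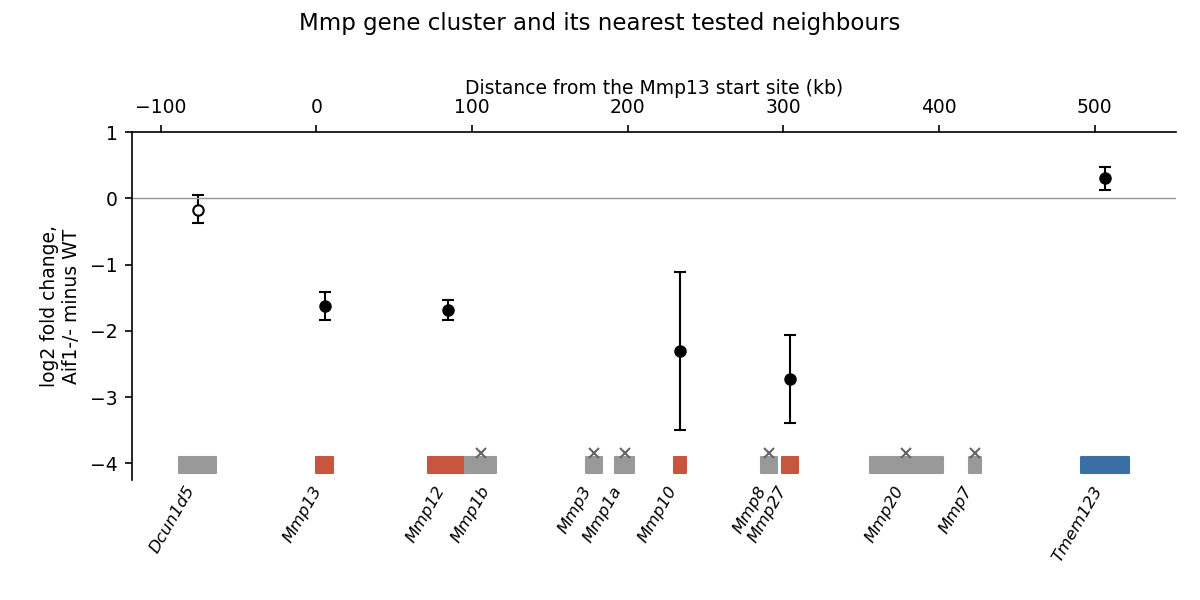
Log2 fold change, Aif1-/- minus WT, of the tested genes along the Mmp cluster of chromosome 9, against the distance in kb from the start of Mmp13, with 95% intervals from edgeR, filled points for an adjusted p under 0.05, crosses for genes not tested, and boxes for the gene bodies (red lower, blue higher, grey neither). The 4 tested Mmp genes lie between -2.73 and -1.62 while the flanking genes Dcun1d5 and Tmem123 lie at -0.17 and 0.30.

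One enzyme carried most of the metalloproteinase transcript of these cells in both genotypes. Summed over all Mmp genes, the level was 157, 160 and 152 RPKM in WT libraries and 53.0, 53.2 and 50.7 RPKM in Aif1-/- libraries. Mmp12 made up 81.6, 85 and 81.4% of this sum in WT libraries and 77, 76.6 and 76.6% in Aif1-/- libraries. Mmp13 contributed between 9.56 and 11.9% in WT and between 10.4 and 10.6% in Aif1-/- libraries. Without Mmp12 and Mmp13 the sum was 10.3, 8.73 and 11.2 RPKM in WT libraries and 6.68, 6.84 and 6.46 RPKM in Aif1-/- libraries, without overlap. This sum still held Mmp9, Mmp27, Mmp10 and Mmp25, which were each called lower, so it is no separate result.

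The ratios of Mmp12 and of Mmp13 to Timp2 were lower in Aif1-/- libraries. The Mmp12 to Timp2 ratio per kilobase was 0.787, 0.932 and 0.634 in WT libraries and 0.339, 0.317 and 0.311 in Aif1-/- libraries. For Mmp13 to Timp2 it was 0.114, 0.105 and 0.0876 against 0.046, 0.0438 and 0.0432. These ratios, chosen after the values were seen, do not depend on library scaling and did not overlap between genotypes. The planned ratio of Mmp14 to Timp2 rested on at most 3 reads of Mmp14 per library, was 0, 0.000124 and 0 in WT libraries and 5.25e-05, 7.42e-05 and 0 in Aif1-/- libraries, and overlapped.

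Ratios over Timp1 showed no such separation. Mmp9 to Timp1 was 3.62, 1.62 and 6.31 in WT libraries and 1.2, 5.27 and 6.52 in Aif1-/- libraries. Mmp12 to Timp1 was 295, 186 and 437 against 193, 637 and 616. Both overlapped between the genotypes and rested on 1 to 18 reads of Timp1 per library.

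Among the 15 other metalloproteinase genes, 8 were tested, with a median log2 fold change of -0.28. By edgeR 2 were lower and 0 were higher, also with unadjusted p and by DESeq2. Over 14 alternatives in processing, between 0 and 2 were called lower. In 2 of these alternatives 1 was called higher, without WT replicate 3 and with a covariate for reads outside genes. Mmp25, a leukocyte enzyme anchored to the membrane by a glycolipid, had 30, 48 and 64 reads in WT libraries and 3, 0 and 0 in Aif1-/- libraries. Its reads were nearly absent from every Aif1-/- library, and it passed the filter through its WT libraries. The log2 fold change was -5.08 (SE 0.68, edgeR adjusted p = 0.00042), and the ratio of 142 to 3 reads after scaling was 37.3 with a 95% counting interval of 12.5 to 183. Without Aif1-/- replicate 1, which held the 3 reads, the fitted log2 fold change was -8.35. Mmp25 shares chromosome 17 with Aif1, at chr17:23628311-23645277 and 11.5 Mb away. Mmp10 was the other gene called lower. Mmp23 and Mmp11 did not pass, with log2 fold changes of 0.45 (adjusted p = 0.533) and -0.40 (adjusted p = 0.601).

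The 4 other inhibitors looked up, Timp3, Timp4, Reck and A2m, had at most 6 reads in any library and none was tested. A2m, which encodes the plasma proteinase trap alpha-macroglobulin, had 0 reads in every library.

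Genes that activate proenzymes moved in both directions. Of 12 genes of the plasminogen system and the proenzyme convertases, 7 were tested, 3 were lower and 3 were higher, with a median log2 fold change of -0.16. Plau, the urokinase that turns plasminogen into plasmin, rose from 5765.0 ± 784.7 to 9741.7 ± 311.6 normalized counts (log2 fold change 0.76, SE 0.09, edgeR adjusted p = 0.000249). Plaur, its receptor, rose from 864.4 ± 116.4 to 1338.2 ± 64.5 normalized counts (0.63, SE 0.10, adjusted p = 0.00135). Plgrkt, a plasminogen receptor, fell from 1121.7 ± 79.7 to 761.7 ± 9.90 normalized counts (-0.56, SE 0.08, adjusted p = 0.000728). S100a10, which binds plasminogen in a complex with Anxa2, fell from 3532.0 ± 253.2 to 2585.4 ± 36.5 normalized counts (-0.45, SE 0.07, adjusted p = 0.00132). Anxa2 itself, named after its values were seen, did not pass (-0.16, SE 0.08, adjusted p = 0.213) and its groups overlapped.

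The remaining calls of this group were named after their values were seen. Plat, the tissue plasminogen activator, had 34, 23 and 63 reads in WT libraries and 7, 6 and 5 in Aif1-/- libraries (log2 fold change -2.36, SE 0.47, edgeR adjusted p = 0.00566). It passed the filter on low counts through its WT libraries. Furin, a convertase that removes propeptides of membrane-type enzymes, was higher at 0.40 (SE 0.12, edgeR adjusted p = 0.0441), a call kept only without WT replicate 3 when 1 library was left out (adjusted p 0.0776 to 0.173 in the other 5). Plg, the gene of plasminogen itself, had 0 reads in every library.

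Cell surface partners of these enzymes also split. Of 8 such genes, 7 were tested, 1 was lower and 2 were higher, with a median log2 fold change of 0.01. Itgb3, the integrin beta chain that with Itgav binds gelatinase A, had normalized counts of 1687.2, 1613.8 and 1750.4 in WT libraries and 250, 254.4 and 187 in Aif1-/- libraries. The groups were far apart, with a log2 fold change of -2.86 (SE 0.12, edgeR adjusted p = 8.78e-08). Its partner Itgav moved the other way, from 5536.0 ± 364.4 to 10566.6 ± 271.4 normalized counts (0.93, SE 0.07, adjusted p = 6.24e-06).

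Lrp1, an endocytic receptor that clears gelatinases and inhibitor complexes, rose from 66266.3 ± 7188.8 to 121344.8 ± 1778.8 normalized counts (log2 fold change 0.87, SE 0.08, edgeR adjusted p = 3.75e-05). Cd44, a hyaluronan receptor that holds gelatinase B at the surface, was at -0.14 (SE 0.06, 95% interval -0.28 to 0.00, adjusted p = 0.168).

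Among 10 AP-1 and ETS factor genes, whose protein families bind the letters searched in the promoters, all 10 were tested, 3 were higher and 0 were lower, with a median log2 fold change of 0.17. By unadjusted p under 0.05, 3 were lower and 4 higher, and DESeq2 called 0 lower and 4 higher. Junb rose from 1257.2 ± 245.1 to 2351.4 ± 93.1 normalized counts (0.90, SE 0.13, edgeR adjusted p = 0.000567). Ets1 rose from 238.4 ± 28.1 to 403.6 ± 22.1 (0.76, SE 0.12, adjusted p = 0.00144) and Fosl2 from 1860.5 ± 42.2 to 2437.0 ± 67.3 (0.39, SE 0.06, adjusted p = 0.00163). Jun had a log2 fold change of -0.23 (SE 0.08, adjusted p = 0.058) and passed under 5 of the 14 alternatives.

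The cells carried macrophage markers, and neutrophil, fibroblast and osteoclast markers were low but not absent. All 7 macrophage markers were tested and 6 were higher in Aif1-/- libraries, against 8.04% of all tested genes. By edgeR, by unadjusted p and by DESeq2, 0 were lower. The median log2 fold change was 0.41. Csf1r, the CSF-1 receptor, was higher at 0.48 (SE 0.08, edgeR adjusted p = 0.00121) and Cd68 did not pass at 0.01 (adjusted p = 0.976). The summed level of all 7 was 3380 to 4060 CPM (counts scaled to library size) in WT and 4970 to 5050 in Aif1-/- libraries. The 6 called markers therefore stood higher in the libraries in which Mmp12, Mmp13, Mmp9 and Mmp27 stood lower. Any link between these differences was not tested.

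Of 8 neutrophil markers none was tested, and S100a9, Ly6g, Mpo and Elane had 0 reads in every library. The list, led by Camp and S100a8, summed to 0 to 1.16 CPM in WT and 0.392 to 0.907 in Aif1-/- libraries. Camp had 15, 12 and 0 reads in WT libraries and 8, 7 and 5 in Aif1-/- libraries. Its mean of 0.43 RPKM in Aif1-/- libraries was above those of Mmp9 and Mmp27 there. The part of neutrophils in the member values was not tested. Of 6 fibroblast markers none was tested, Dcn and Lum had 0 reads, and the sum was 0 to 0.361 CPM in WT and 0 to 1.06 in Aif1-/- libraries, led by Col3a1 and Col1a1. Of 5 osteoclast markers only Ctsk was tested, at -0.39 (SE 0.65, edgeR adjusted p = 0.767). Ctsk, a collagen-cutting cathepsin, had 9, 43 and 21 reads in WT libraries and 13, 4 and 25 in Aif1-/- libraries. Its mean of 0.467 RPKM in Aif1-/- libraries was above those of Mmp9 and Mmp27 there, and the part of such cells in the member values was not tested. The osteoclast list, in which Calcr had 0 reads and Ctsk and Dcstamp led, summed to 0.685 to 1.81 CPM in WT and 0.34 to 2.91 in Aif1-/- libraries.

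The member calls moved little with the processing. Over 14 alternatives in normalization, filter, tool, covariate and libraries, the fitted log2 fold change ranged from -1.71 to -1.65 for Mmp12 and from -1.69 to -1.56 for Mmp13. It ranged from -2.37 to -2.01 for Mmp9 and from -2.86 to -2.46 for Mmp27, and these 4 genes kept their calls in all 14. Timp2 ranged from -0.52 to -0.31 and was lost in the 2 cases given above. Mmp2 (-0.18 to -0.02) and Mmp19 (-0.22 to -0.07) passed in none of the 14.

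**Figure D4:**
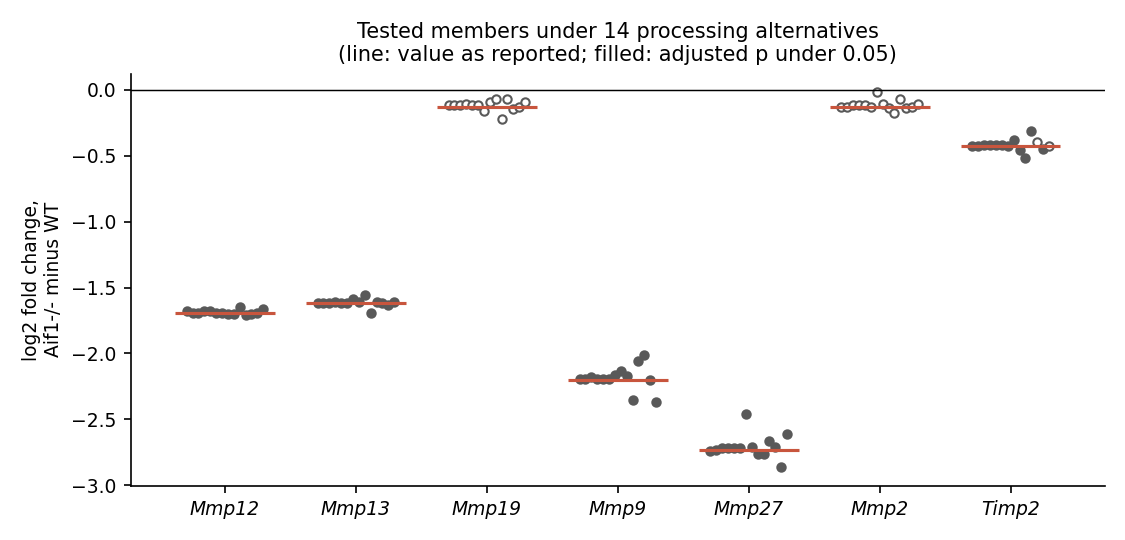
Log2 fold change, Aif1-/- minus WT, of the 7 tested members under the reported analysis and 14 alternatives, with a line at the reported value, 1 point per alternative and open points where the adjusted p was not under 0.05. Mmp27, Mmp9, Mmp12 and Mmp13 stay below -1.5 in every alternative, Timp2 lies between -0.52 and -0.31, and Mmp2 and Mmp19 lie between -0.22 and -0.02.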

How the data were processed

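Total RNA from 3 WT and 3 Aif1-/- libraries was depleted of ribosomal RNA and sequenced from a stranded kit. Per the labels, the authors used Trim Galore 0.5, TopHat2 2.0.13 and HTSeq 0.6.1p1 on build GRCm38, and the deposited values were raw read counts per Ensembl gene. HTSeq was run with default settings, which count by strand; whether that setting fitted the kit was not tested. Rows that named no gene were left out of library sizes (outside genes 25.5 to 40.4%, ambiguous 4.55 to 7.15% of reads).

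Of 47729 genes, 47310 matched GENCODE M21, which gave symbols, positions and exon lengths. Counts were filtered (filterByExpr), scaled by TMM and fitted with genotype alone in edgeR 4.0.16 (quasi-likelihood test, R 4.3.3, limma 3.58.1), with Benjamini-Hochberg adjustment over 17406 genes at 0.05. The SE is the log2 fold change divided by the root of F. The fit was tested on simulated data. An exact two-sided permutation test of 3 against 3 cannot go below 0.1 and was not used. Depth was 17707986 to 29314253 counts in genes per library, and intervals on counts cover counting error only.

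Alternatives were DESeq2 1.42.0, other scalings and filters, thinning, a covariate, a replicate block and each library left out. The members and gene lists were chosen with earlier results of these data known. A planned list gene is not reported here and was left out of the list counts. Named genes were all members, Aif1, up to 4 tested genes per list by smallest adjusted p, up to 2 marker genes per list by mean count, and the tested neighbours of the cluster. Other names were chosen after their values were seen.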

Additional observations from a re-analysis of the deposited data

How the results depend on the processing

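Between 4 and 5 members were called lower and 0 higher in all 14 alternatives, and none of the fold changes recomputed for members or named genes reversed. Genes called numbered 3231 in all and 2040 to 4889 when 1 library was left out (4889 without WT replicate 3, 2040 without Aif1-/- replicate 1). With a covariate for the percentage of reads outside genes, 5517 genes were called (2839 lower, 2678 higher, against 1832 and 1399), and pathway genes called lower went from 6 to 11. A minimum of 50 counts in at least 3 libraries left 4 pathway genes called lower, and leaving out 1 library gave 5 to 8. The cause of these moves was not tested. Pathway genes called higher numbered 8, with 7 to 10 over the alternatives.

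Replicate numbers were not shown to pair the libraries: same-numbered libraries correlated at 0.06, -0.08 and -0.09 in their deviations from the group means. Of these same-numbered pairs, only the replicate 1 libraries correlated best with each other. The highest correlation was 0.13, between WT replicate 2 and Aif1-/- replicate 3. The replicate block called 2872 genes (1605 lower, 1267 higher) and 5 members lower, and changed no member call. Depth limited Mmp8, Mmp14 and Timp1, which had at most 18 reads in a library.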

Other observations

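Among the AP-1 genes, WT replicate 2 stood apart. Its Fosb level was 595.6 normalized counts, against 13.1 and 9.29 in the other WT libraries and 71.5, 51.9 and 65.8 in Aif1-/- libraries. Its Fos level was 708.5 normalized counts, against 76.4 and 174.8 in the other WT libraries and 468.1, 370.2 and 468.8 in Aif1-/- libraries. Of the 7 tested members, 6 (Mmp2, Mmp9, Mmp13, Mmp19, Mmp27 and Timp2) had their lowest WT level in this library, and Mmp12 had its highest. Apart from Mertk, the macrophage markers also had their lowest WT level there, so this order was not particular to the members. The share of all tested genes with this order was not counted. Aif1-/- replicate 3 held 19 reads of Acp5, an osteoclast phosphatase, and 17 of Col3a1, a fibrillar collagen, where the other libraries had 0 of Acp5 and at most 2 of Col3a1. These genes were named after their values were seen.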
